A study of Mus musculus with 8 samples.

Results

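The genes described here encode the proteins that start, anchor, extend, stabilise and cut microtubules: the gamma-tubulin ring complex, the centrosome and its satellites, the nucleation sites of the Golgi, and the microtubule-associated proteins (MAPs). The list holds 51 genes, tubulins and motors left aside, and all 51 were found by Ensembl identifier among the 52636 genes of the deposited table. Each was measured by RNA sequencing of wild-type (WT) C57BL/6 primary microglia (the study's methods list C57BL/6N pups), which had been shaken off mixed glial cultures of newborn mice and were kept in medium with serum and the growth factor CSF-1. One group received LPS, a bacterial lipopolysaccharide that switches these macrophages of the brain to an inflammatory state, at 5 µg/ml for 24 h, and the other received vehicle, with 4 libraries per group labelled as biological replicates. The comparison asks which mRNAs of the machinery that organises microtubules differ in LPS-reactive cells. Such cultures are grown cells outside the tissue, and fewer cells of a type and less RNA per cell cannot be told apart in a bulk library.

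A microtubule starts from a ring of gamma-tubulin that serves as a template for its minus end. In dividing animal cells most rings sit in the protein matrix around the centrioles, whereas in many differentiated cells the Golgi or free minus ends held by CAMSAP proteins take over part of this work. The other end grows and shrinks, and end-binding proteins, polymerases, lattice-binding MAPs, stathmins and severing enzymes set how fast and how long. The amount of mRNA is only 1 level of control in this system, since much of it works through phosphorylation and the place of a protein in the cell.

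The sequences of a pair of members decide how their counts can be read, so they are shown first. Stathmin 1 (Stmn1, ENSMUSG00000028832, chr4:134468320-134473843 of GRCm38, plus strand), which binds and sequesters tubulin dimers, has an intronless copy elsewhere on the same chromosome, the processed pseudogene Gm11223 (ENSMUSG00000046341, chr4:69925630-69926079, minus strand). In the GENCODE vM21 transcripts the 450 coding bases of Stmn1 and those of the copy differed at 1 base. The 60 bases around it are given below, 5′ to 3′, with the base that differs in capitals (Stmn1 chr4:134472862-134472921, inside 1 coding exon, and Gm11223 chr4:69925776-69925835).
Stmn1: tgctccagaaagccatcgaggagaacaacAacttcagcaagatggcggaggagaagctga
Gm11223: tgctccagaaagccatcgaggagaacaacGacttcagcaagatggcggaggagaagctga
Of the 401 windows of 50 bases, the read length, that fit in this coding sequence, 351 (87.5%) were identical in the copy, and the authors counted only reads with a unique alignment. Over the longest coding transcript of Stmn1, noncoding exons included, 34.7% of the windows also occurred in another gene.

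The pair of gamma-tubulin genes, Tubg1 (ENSMUSG00000035198, chr11:101119938-101126419, plus strand) and Tubg2 (ENSMUSG00000045007, chr11:101155907-101161787, plus strand), lie next to each other and are alike over much of their length. Their coding sequences of 1356 bases differed at 91 bases (93.3% identical). The first lines below show the 60 coding bases with the most differences, 15 in all, in capitals (Tubg1 chr11:101126033-101126092, Tubg2 chr11:101161406-101161465). The next lines show the start of the longest identical run, of 164 bases, which spans an exon junction and where reads cannot be told apart.
Tubg1, most differences: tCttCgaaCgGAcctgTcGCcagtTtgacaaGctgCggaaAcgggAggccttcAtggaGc
Tubg2, most differences: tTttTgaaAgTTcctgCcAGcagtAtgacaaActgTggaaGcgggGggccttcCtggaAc
Tubg1, identical run: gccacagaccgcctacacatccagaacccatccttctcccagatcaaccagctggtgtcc
Tubg2, identical run: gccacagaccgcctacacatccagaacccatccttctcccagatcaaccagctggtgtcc
Of the 1307 coding windows of 50 bases, 244 (18.7%) were shared by both genes, so that most such windows tell the genes apart.

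Library totals were 20071921 to 30604447 counts. Levels are given in CPM, counts per 1000000 of the library size after TMM scaling, with factors of 1.21 to 1.32 in vehicle and 0.701 to 0.833 in LPS libraries. This scaling matters for sums: the 51 genes together took 0.301 to 0.351% of the raw counts in vehicle and 0.225 to 0.230% in LPS libraries, but 2491 to 2663 CPM against 2761 to 3204 CPM after scaling, so the direction of the sum depends on it. Upper quartile scaling lowered the log2 fold change of the median gene by a further 0.16. All 10 microglial markers were detected, of which 7 fell and 1 (Itgam) rose, with a summed level of 12200 to 15511 CPM in vehicle and 6012 to 6577 CPM in LPS libraries. The summed neuronal markers lay at 8.97 to 24.7 CPM in vehicle and 8.62 to 14.5 CPM in LPS libraries, and of 6 tested 1 rose and 3 fell. Those of astrocytes lay at 20.8 to 47.7 and 41.4 to 124 CPM, with 3 of 8 tested lower and 1 higher, Gja1, which went from 0.872 ± 0.221 to 48.5 ± 33.1 CPM. The 12 markers of cycling cells all fell, from a sum of 206 to 457 CPM to 21.0 to 25.0 CPM. Endothelial markers summed to 37.3 to 84.2 and 196 to 272 CPM. Of the 4 tested, Pecam1 (20.2-fold), Cdh5 (7.87-fold) and Flt1 (3.4-fold) rose, while 4 of the 10 (Cldn5, Tek, Esam and Ly6c1) were at or under 3 counts in every library. Oligodendrocyte lineage markers summed to 199 to 225 and 188 to 243 CPM, a sum in which Cnp rose from 88.5 to 195 CPM while Mbp, Cspg4, Olig1 and Olig2 fell (median log2 fold change -2.30 over 8 tested). Fibroblast and mural markers summed to 5.42 to 10.5 and 10.3 to 31.1 CPM, with 2 of 5 tested higher.

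LPS replicate 3 stood apart from its group. Its log2 level differed from the mean of the other 3 LPS libraries by 0.5 or more in 14 of 49 tested members, against 2 to 6 members in each of the other 7 libraries. Across the 49 members this deviation fell as the GC content of the longest transcript rose (Spearman's rho -0.67), and over the 8006 genes whose log2 CPM averaged 3 or more the rho was -0.62. Across members rho was 0.346, 0.603 and 0.584 in LPS replicates 1, 2 and 4, whose deviations are taken from means that include LPS replicate 3. In the vehicle libraries it was -0.187 to 0.354. Each coefficient describes points that share 1 library, and the part of GC content in the deviations was not tested. In LPS replicate 3 Map1s (64.1% GC) lay furthest below the other LPS libraries, by 2.72 on the log2 scale, and Katna1 (45.3% GC) furthest above them, by 0.73. Vehicle replicate 3 stood apart in another way, with low levels of Map1b, Mapt, Stmn3 and Tacc2 and of the summed neuronal and astrocyte markers. The precursor genes Pdgfra, Olig1 and Olig2 were low there too. The summed oligodendrocyte lineage markers were not (220 CPM, in a vehicle range of 199 to 225 CPM), and Cnp was highest there. Members whose call turns on 1 library are named below, with the values of the fits that change the call.

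**Figure D1:**
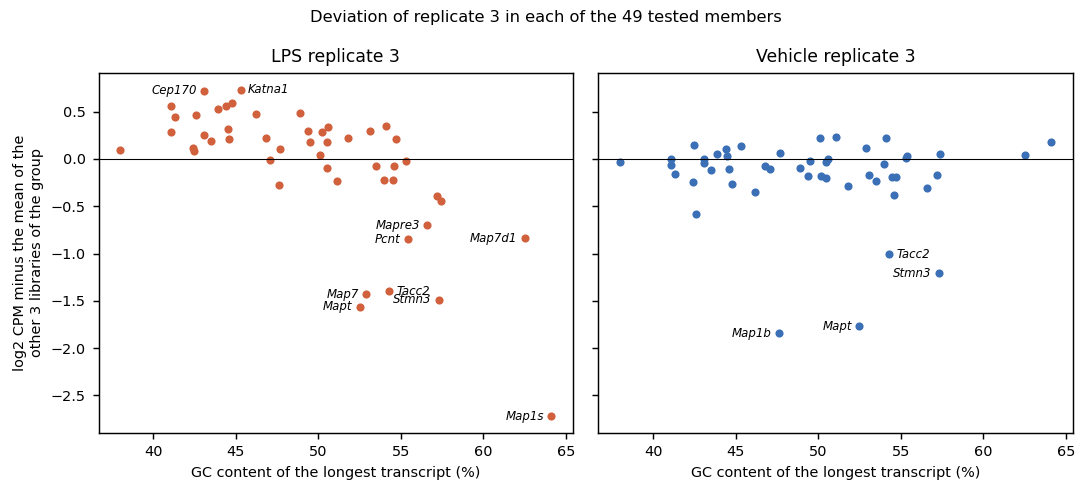
Deviation of replicate 3 from the mean log2 CPM of the other 3 libraries of its group (y axis) against the GC content of the longest transcript in percent (x axis), for LPS (left) and vehicle (right), 1 point for each of the 49 tested members. In LPS replicate 3 members of low GC content mostly sit above the line and Map1s, at 64.1% GC, sits 2.72 below it. In vehicle replicate 3 the lowest points are Map1b, Mapt, Stmn3 and Tacc2.

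Of the 51 members, 49 passed the filter on low counts and 2, Tubg2 and Camsap3, did not. By edgeR's quasi-likelihood test (two-sided, adjusted over all tested genes, threshold 0.05), 9 of the 49 (18.4%) were higher after LPS, where 30.3% of all 13847 tested genes were. Lower after LPS were 18 of the 49 (36.7%), beside 33.8% of all tested genes. In either direction 27 members (55.1%) and 64.1% of all tested genes were called. The counts in the role groups below are to be read against these shares. Changes of at least 2-fold were called in 9 members (18.4%) and in 37.7% of all tested genes. The vehicle and LPS libraries did not overlap in 24 members (49.0%), beside 60.2% of all tested genes. The median absolute log2 fold change was 0.47 over the members and 0.77 over all tested genes, and the signed medians were -0.17 and -0.11. Stmn1 passed the filter through its vehicle libraries alone, and 45 members exceeded the minimum in all 8 libraries. With upper quartile scaling 6 members were called higher and 24 lower, beside 3589 higher and 5481 lower over all genes. Without LPS replicate 3, 10 were called higher and 21 lower, beside 4299 and 5015 over all genes. In the main fit 4191 of the 13847 genes were higher and 4686 lower.

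**Figure D2:**
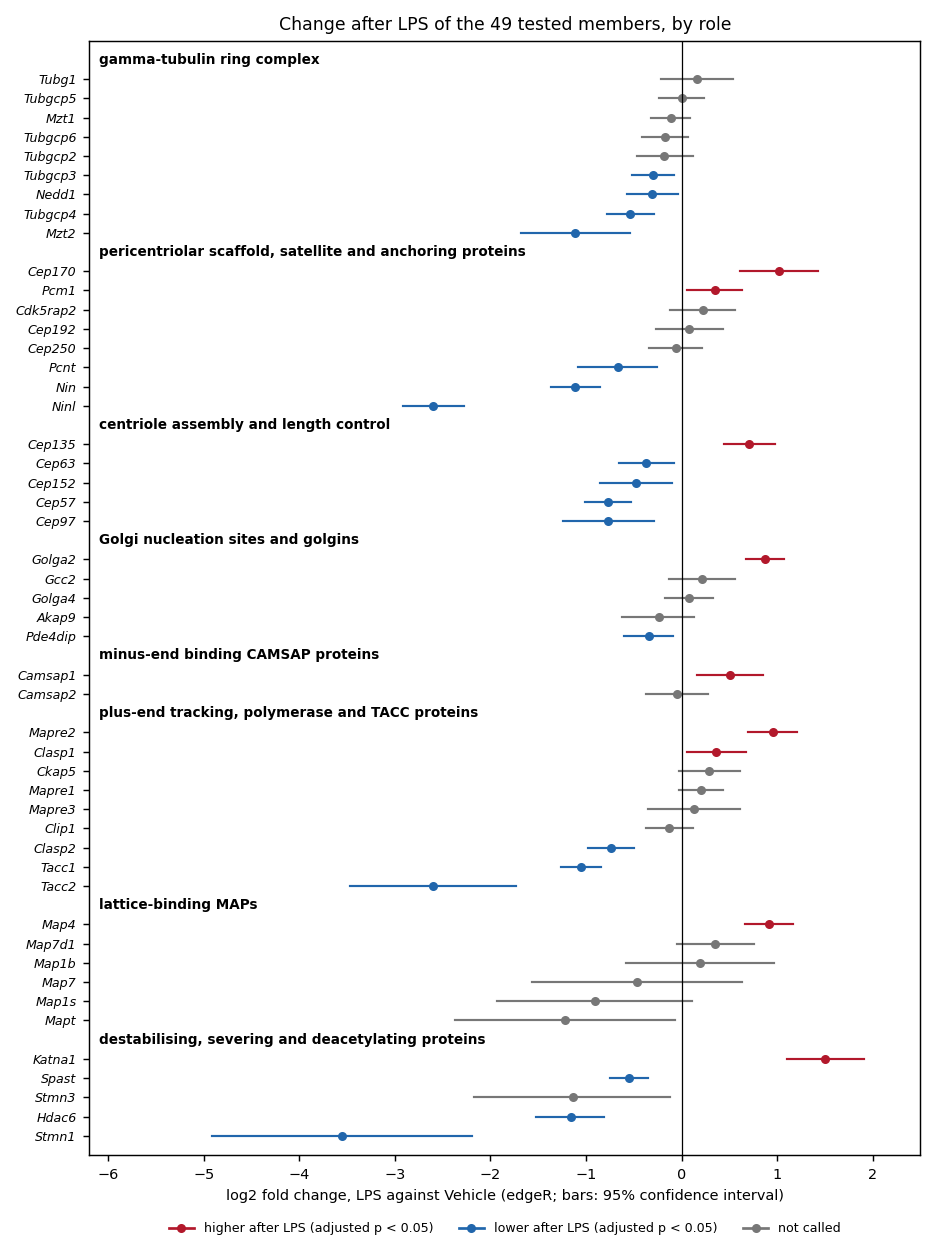
Log2 fold change of each tested member (x axis, LPS against vehicle, edgeR) with its unadjusted 95% confidence interval, grouped by role, 4 libraries per group. Red points are the 9 members called higher, blue points the 18 called lower and grey points the 22 not called. Katna1 lies furthest to the right (1.50) and Stmn1, which passed the filter through its vehicle libraries alone, furthest to the left (-3.55).

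The gamma-tubulin ring complex had no member that rose. Of its 10 genes 4 fell (Tubgcp3, Tubgcp4, Mzt2 and Nedd1), 5 were not called and Tubg2 was not tested. Tubg1, the gamma-tubulin that most cells use, was measured at 12.5, 12.5, 11.2 and 12.6 CPM in vehicle replicates 1 to 4 and at 10.9, 16.8, 10.9 and 16.0 CPM in LPS replicates 1 to 4. The LPS libraries lay on both sides of the vehicle ones, so that the groups overlapped. The log2 fold change was 0.16 with a standard error (SE) of 0.17 and an adjusted p of 0.413, and the 95% interval reached from -0.21 to 0.54. Tubg2 had 10, 10, 7 and 3 counts in vehicle and 1, 0, 1 and 4 counts in LPS libraries. Per kb of exon Tubg1 made up 97.4% ± 1.13 (SD, n = 4) of the counts of both genes in vehicle and 99.3% ± 0.716 after LPS, a difference of 1.89 percentage points with an exact permutation p of 0.0571.

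The adaptors of the ring moved unequally. Mzt2, a small protein that binds the ring, was measured at 4.26, 4.91, 5.96 and 6.38 CPM in vehicle and at 1.49, 3.05, 2.89 and 2.49 CPM in LPS libraries. Every LPS library was below every vehicle library, and the log2 fold change was -1.11 (SE 0.25, adjusted p = 0.00349), a 2.16-fold fall. Its partner Mzt1 had 29.4 ± 1.95 CPM in vehicle and 27.2 ± 1.30 CPM after LPS (SD, n = 4; log2 fold change -0.11, adjusted p = 0.302), and was called lower with upper quartile scaling (-0.27, adjusted p = 0.0237). The Mzt1 share of both genes per kb was therefore 73.8% ± 2.69 in vehicle and 85.0% ± 3.37 after LPS, a rise of 11.2 percentage points. No LPS library overlapped the vehicle ones in this share (exact permutation p = 0.0286, the smallest that 4 against 4 libraries allow, 0.0429 adjusted over 6 shares).

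The scaffold subunits of the ring changed little where they changed at all. Tubgcp4 fell by 0.54 on the log2 scale (SE 0.11, adjusted p = 0.0018), but 26.1% of its exonic bases overlap genes on the opposite strand (Trp53bp1 and Zscan29), and whether the counting used strand is not given in the sources used here. Tubgcp3 fell by 0.30 (adjusted p = 0.0234), a call lost by DESeq2 (adjusted p = 0.0536), without vehicle replicate 2 (-0.23, adjusted p = 0.105) and without vehicle replicate 4 (-0.24, adjusted p = 0.0975). Nedd1, which targets the ring to centrosomes and spindles, fell by 0.31 (adjusted p = 0.0427) with overlapping groups, and lost the call with a replicate block (adjusted p = 0.0711). Leaving out any 1 library other than vehicle replicate 1 and LPS replicate 3 also ended the call of Nedd1, with log2 fold changes of -0.29 to -0.25 and adjusted p of 0.0863 to 0.127. Tubgcp2, Tubgcp5 and Tubgcp6 had log2 fold changes of -0.18, 0.00 and -0.17, none called, though Tubgcp6 was called lower with upper quartile scaling (-0.32, adjusted p = 0.0355).

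Among the 8 genes of the pericentriolar matrix, satellites and anchoring appendages, 2 rose, 3 fell and 3 were not called. Pericentrin (Pcnt, ENSMUSG00000001151, chr10:76351263-76442786, minus strand), a scaffold that holds gamma-tubulin rings at the centrosome, had 42.9, 51.0, 48.7 and 49.3 CPM in vehicle and 31.2, 36.2, 18.8 and 34.4 CPM in LPS libraries. LPS replicate 3 was the lowest, but all 4 LPS libraries lay under all 4 vehicle libraries. Pcnt fell by 0.67 on the log2 scale (SE 0.18, adjusted p = 0.00979), or by 0.49 without LPS replicate 3 (adjusted p = 0.00129). The ring-binding activator Cdk5rap2 (0.22), Cep192 (0.08), which gathers the matrix for mitosis, and Cep250 (-0.06), a linker of the centrioles with 11.1% of its exonic bases under a gene on the other strand, were not called.

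The largest fall among these was that of Ninl (ENSMUSG00000068115, chr2:150934519-151039382, minus strand), the ninein-like protein of the interphase centrosome. It had 22.5, 23.9, 19.8 and 23.5 CPM in vehicle and 4.54, 3.37, 3.54 and 3.41 CPM in LPS libraries. The groups were far apart, and the log2 fold change of -2.60 (SE 0.14, adjusted p = 6.20e-07) is a 6.04-fold fall. Ninein itself (Nin), which anchors minus ends at the mother centriole, fell 2.16-fold, from 74.2 ± 8.59 to 34.4 ± 3.52 CPM (adjusted p = 2.61e-05). Cep170, another protein of these appendages, moved the other way. It had 105, 129, 117 and 127 CPM in vehicle and 224, 206, 345 and 198 CPM in LPS libraries, with no overlap. Its log2 fold change was 1.02 (SE 0.18, adjusted p = 8.19e-04) and 0.81 without LPS replicate 3, the highest library. The satellite scaffold Pcm1 rose by 0.35 on the log2 scale (adjusted p = 0.0382), with overlapping groups, and lost the call with a replicate block (adjusted p = 0.0603) and with upper quartile scaling (adjusted p = 0.176). Without LPS replicate 3 the log2 fold change of Pcm1 was 0.23 (adjusted p = 0.044), and the call was also lost without LPS replicate 2 (0.38, adjusted p = 0.0559) or 4 (0.38, adjusted p = 0.055).

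All 5 genes of centriole assembly and length control were called, beside 64.1% of all tested genes, and 4 were lower after LPS, beside 33.8%. The group is small, and the calls of Cep152 and Cep63 turned on single libraries. Cep57, a protein of the pericentriolar matrix around the centriole wall, had 24.0, 20, 24.5 and 22.3 CPM in vehicle and 13.6, 12.7, 13.9 and 13.1 CPM in LPS libraries. The groups did not overlap, and the log2 fold change was -0.77 (SE 0.11, adjusted p = 1.72e-04). Cep97, a cap of the centriole end that limits its length, also fell by 0.77 but with overlapping groups (adjusted p = 0.00962). Cep152 and Cep63, partners that recruit the duplication kinase, fell by 0.48 and 0.37 (adjusted p = 0.0293 and 0.0288), and Cep63 lost the call with a replicate block (adjusted p = 0.0629). Cep152 had 9.26, 9.33, 9.79 and 10.9 CPM in vehicle and 5.56, 8.22, 8.30 and 6.11 CPM in LPS libraries. These did not overlap, but the call was lost without vehicle replicate 3 (-0.42, adjusted p = 0.0678) or 4 (-0.40, adjusted p = 0.0831) and without LPS replicate 1 (-0.37, adjusted p = 0.0654) or 4 (-0.41, adjusted p = 0.0848). Cep63 lost its call without vehicle replicate 3 or 4 and without LPS replicate 1, 2 or 4, with log2 fold changes of -0.37 to -0.27 and adjusted p of 0.0599 to 0.111. Cep135, which builds the cartwheel of the new centriole, rose instead. Its levels were 12.5, 13.4, 12.8 and 15.5 CPM in vehicle and 23.4, 20.4, 24.7 and 20.3 CPM in LPS libraries, a log2 fold change of 0.71 (SE 0.12, adjusted p = 5.96e-04) with no overlap. The cycling markers fell in the same libraries, and their part in these changes was not tested.

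Of the 5 genes of Golgi nucleation sites and golgins, Golga2 rose, Pde4dip fell and 3 were not called. Golga2 (GM130, ENSMUSG00000002546, chr2:32287384-32307921, plus strand), the cis-Golgi matrix protein to which the nucleating scaffolds attach, had 67.2, 60.8, 62.7 and 58.8 CPM in vehicle and 107, 120, 113 and 117 CPM in LPS libraries. The groups were far apart and narrow, with a log2 fold change of 0.87 (SE 0.09, adjusted p = 2.24e-05), a 1.83-fold rise. The large scaffold Akap9 (ENSMUSG00000040407, chr5:3928054-4081310, plus strand), which recruits gamma-tubulin rings to the Golgi, had 63.7, 67.9, 55.1 and 66.5 CPM in vehicle and 56.7, 44.5, 71.1 and 41.7 CPM in LPS libraries. LPS replicate 3 was above every vehicle library and replicates 2 and 4 were below them all. The log2 fold change of -0.24 (SE 0.17, adjusted p = 0.225) was not called, whereas without LPS replicate 3 it was -0.41 (adjusted p = 0.0183), and upper quartile scaling gave the same value (adjusted p = 0.0437).

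Its relative Pde4dip (myomegalin) had 68.1, 54.3, 52.2 and 57.0 CPM in vehicle and 40.7, 44.1, 50.7 and 46.9 CPM in LPS libraries. These did not overlap, and Pde4dip fell by 0.34 on the log2 scale (SE 0.11, adjusted p = 0.0236), a call lost with a replicate block (adjusted p = 0.0545) and by DESeq2 (adjusted p = 0.0523). It was also lost without vehicle replicate 1 (-0.22, adjusted p = 0.0704), LPS replicate 1 (-0.28, adjusted p = 0.0604) or LPS replicate 2 (-0.32, adjusted p = 0.0692). Akap9 took 46.4% ± 3.14 of the counts per kb of both scaffolds in vehicle and 47.6% ± 5.73 after LPS, 1.22 percentage points more and less than the SD (exact permutation p = 0.686). The trans-Golgi golgins Golga4 (0.08) and Gcc2 (0.21) had small log2 fold changes that were not called.

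Of the CAMSAP genes, whose products cap and keep free minus ends, Camsap1 rose, Camsap2 was not called and Camsap3 was not tested. Camsap2 had 69.5, 71.0, 56.0 and 72.8 CPM in vehicle and 52.9, 61.9, 82.5 and 63.5 CPM in LPS libraries. The groups overlapped fully, with a log2 fold change of -0.05 (SE 0.15, adjusted p = 0.794) and a 95% interval from -0.37 to 0.28. Camsap1 had 20.4, 21.8, 17.3 and 21.3 CPM in vehicle and 20.8, 33.2, 31.7 and 29.0 CPM in LPS libraries. Only LPS replicate 1 lay within the vehicle range, and the log2 fold change was 0.51 (SE 0.16, adjusted p = 0.0167). That call was lost with upper quartile scaling (adjusted p = 0.0642), and 13.0% of its 50-base windows occur in other genes, mainly Gm19026 and Gm19040. The Camsap2 share of the 3 genes per kb was 74.3% ± 0.667 in vehicle and 67.2% ± 3.42 after LPS, with no overlap (-7.11 percentage points, exact permutation p = 0.0286, adjusted p = 0.0429). Camsap3, an epithelial member, had 27, 32, 10 and 15 counts in vehicle and 6, 5, 0 and 2 counts in LPS libraries.

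Plus-end tracking proteins, polymerases and TACC proteins were split: 2 of 9 rose, 3 fell and 4 were not called. Mapre1 (EB1), which follows growing ends and recruits most other end-tracking proteins, had 135, 156, 144 and 142 CPM in vehicle and 157, 157, 188 and 161 CPM in LPS libraries. All LPS libraries were above the vehicle ones, though by little, and the log2 fold change of 0.20 (SE 0.10) had an adjusted p of 0.112 in edgeR and 0.0433 in DESeq2. Mapre2 (EB2) had 131, 143, 148 and 153 CPM in vehicle and 315, 245, 295 and 264 CPM in LPS libraries. Here the groups were far apart, with a log2 fold change of 0.96 (SE 0.11, adjusted p = 6.35e-05), a 1.94-fold rise. The low-level Mapre3 (EB3) was not called (0.13). Mapre1 thus went from 53.3% ± 1.73 to 41.7% ± 2.99 of the counts per kb of the 3 EB genes, with no overlap between the groups (-11.5 percentage points, exact permutation p = 0.0286, adjusted p = 0.0429).

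The CLASP proteins, which rescue shrinking ends and work at the Golgi as well as at the cell edge, moved in opposite directions. Clasp2 fell from 73.0 ± 2.52 to 43.8 ± 5.79 CPM (log2 fold change -0.74, SE 0.11, adjusted p = 2.32e-04). Clasp1 rose from 49.9 ± 2.29 to 64.3 ± 12.6 CPM with overlapping groups (0.36, SE 0.14, adjusted p = 0.0377), a call lost with a replicate block (adjusted p = 0.055) and with upper quartile scaling (adjusted p = 0.153). Without LPS replicate 2 or 4 it was 0.40 (adjusted p = 0.0505) or 0.38 (adjusted p = 0.0668). The Clasp2 share of both genes per kb was 66.9, 66.8, 69.0 and 67.2% in vehicle and 50.8, 51.2, 47.2 and 48.2% in LPS libraries. This was the largest of the 6 changes in share, -18.1 percentage points, with no overlap (exact permutation p = 0.0286, adjusted p = 0.0429).

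**Figure D3:**
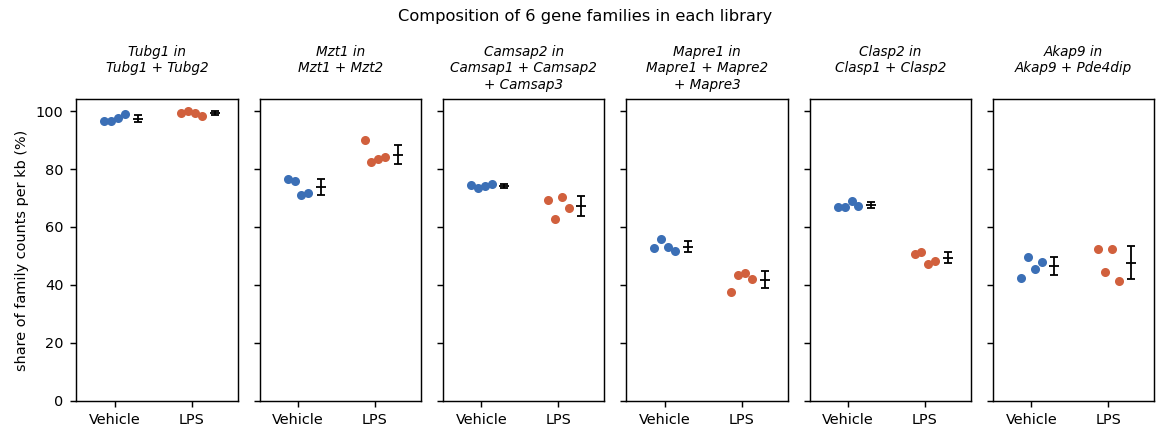
Share of 1 gene in the counts per kb of exon of its family, in percent (y axis, from 0), for 6 families, with 1 point per library and the mean and SD of 4 libraries in black beside them. The vehicle and LPS libraries do not overlap for Mzt1, Camsap2, Mapre1 and Clasp2, and they overlap for Tubg1 and Akap9.

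Tacc2 and Tacc1, whose proteins work with the polymerase Ckap5, both fell. Tacc2 had 7.31, 8.08, 3.93 and 8.58 CPM in vehicle and 1.61, 1.09, 0.466 and 1.46 CPM in LPS libraries. The LPS values rest on 27, 20, 10 and 27 counts. Replicate 3 was the lowest of both groups, and the groups did not overlap. The log2 fold change was -2.60 (SE 0.39, adjusted p = 2.60e-04), and -2.73 without vehicle replicate 3. Tacc1 fell from 154 ± 12.6 to 74.3 ± 2.51 CPM (-1.05, SE 0.09, adjusted p = 1.05e-05). Ckap5 itself had a log2 fold change of 0.29 (adjusted p = 0.102) and the end-tracking linker Clip1 one of -0.13 (adjusted p = 0.334), or -0.29 with upper quartile scaling (adjusted p = 0.0314).

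Among 6 lattice-binding MAPs only Map4 was called. Map4 (ENSMUSG00000032479, chr9:109931460-110083955, plus strand), the broadly expressed MAP that stabilises microtubules outside neurons, had 174, 173, 152 and 166 CPM in vehicle and 283, 304, 366 and 304 CPM in LPS libraries. The groups were far apart, and Map4 rose 1.89-fold (log2 fold change 0.92, SE 0.11, adjusted p = 8.15e-05), or by 0.84 on the log2 scale without LPS replicate 3. Map7d1, a kinesin-recruiting MAP, had 149, 131, 143 and 139 CPM in vehicle and 204, 200, 113 and 201 CPM in LPS libraries. Replicate 3 was below all vehicle libraries and the other 3 above them. Its log2 fold change was 0.35 (adjusted p = 0.111), and 0.53 without that library (adjusted p = 4.42e-04).

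Map1s, a MAP of many tissues, had 52.6, 48.2, 55.4 and 46.1 CPM in vehicle and 34.4, 31.6, 5.13 and 36.8 CPM in LPS libraries. All LPS libraries were lower, replicate 3 by far. The log2 fold change of -0.91 (SE 0.45) was not called (adjusted p = 0.104), while without replicate 3 it was smaller, -0.56, and was called (adjusted p = 8.72e-04). The neuronal MAPs Mapt (tau) and Map1b were low in vehicle replicate 3, with 2.09 CPM against 5.63 to 8.69 CPM and 9.89 CPM against 31 to 40.9 CPM in the other vehicle libraries. Neuronal markers were low there too, with a sum of 8.97 CPM against 19.7 to 24.7 CPM, as were summed astrocyte markers (20.8 against 38.1 to 47.7 CPM). The precursor gene Olig1 was also low (2.06 against 7.55 to 13.8 CPM), but the summed oligodendrocyte lineage markers were not (220 against 199 to 225 CPM). The part of other cell types in these values was not tested. Mapt had 5.63, 8.12, 2.09 and 8.69 CPM in vehicle and 4.48, 2.01, 0.979 and 3.14 CPM in LPS libraries. The groups overlapped, and Mapt had a log2 fold change of -1.22 (adjusted p = 0.0612). It was called without vehicle replicate 3 (-1.43, adjusted p = 0.021), without LPS replicate 1 (-1.58, adjusted p = 0.0305), with a replicate block (adjusted p = 0.00748), by DESeq2 (adjusted p = 0.0436), with upper quartile scaling (adjusted p = 0.0486) and with no filter (adjusted p = 0.0357). Map1b was at 0.19 (adjusted p = 0.643), and Map7 had 0.451 CPM in vehicle and 0.330 CPM after LPS.

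The genes whose products take microtubules apart or modify them held the largest called rise, that of Katna1. They also held Stmn1, with the lowest log2 fold change, which passed the filter through its vehicle libraries alone. Katna1 (ENSMUSG00000019794, chr10:7726000-7763150, plus strand), the catalytic subunit of the severing enzyme katanin, had 18.6, 20.9, 21.9 and 20.3 CPM in vehicle and 45.7, 53.9, 82.6 and 49.6 CPM in LPS libraries. LPS replicate 3 was the highest, and the other 3 also exceeded every vehicle library. Katna1 rose 2.84-fold (log2 fold change 1.50, SE 0.18, adjusted p = 6.77e-05), or by 1.29 on the log2 scale without LPS replicate 3 (adjusted p = 6.67e-06). The other severing enzyme, Spast (spastin), fell from 64.5 ± 3.78 to 44.1 ± 3.01 CPM (-0.55, SE 0.09, adjusted p = 4.82e-04). Hdac6, which removes the acetyl mark of stable microtubules, fell 2.24-fold, from 16.7 ± 2.17 to 7.47 ± 1.21 CPM (adjusted p = 1.46e-04). Both were lower in every LPS library than in any vehicle library.

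Stmn1 rested on few reads: 19, 31, 35 and 32 counts in vehicle replicates 1 to 4 and 1, 4, 1 and 0 counts in LPS replicates 1 to 4. Stmn1 passed the filter on low counts through its vehicle libraries alone, a selection that favours a fall. Every LPS library was lower, and the log2 fold change was -3.55 (SE 0.61, adjusted p = 6.31e-04). At these depths the summed counts, 117 against 6, give a vehicle level 12.5 times the LPS level, with an exact 95% interval of 5.56 to 34.7 that covers counting error only. The pseudogene copy shown above, singled out after its values were seen, held more counts than Stmn1 itself, with 57, 93, 117 and 110 in vehicle and 6, 4, 7 and 4 in LPS libraries. It fell by 3.49 on the log2 scale (SE 0.34, adjusted p = 1.73e-05). With both sets of counts added the level in vehicle was 4.20 CPM instead of 0.995 CPM, and the log2 fold change was -3.53 (SE 0.33, adjusted p = 1.32e-05). The level of Stmn1 in this table thus depends on where its reads were assigned, and reads without a unique alignment are missing from both levels. The sum holds the counts of Stmn1 and of a copy with a similar fall. Its fold change is therefore no separate support for the size of the fall. Stmn3, a neuronal stathmin, had 2.52, 2.35, 1.17 and 3.79 CPM in vehicle and 1.67, 1.09, 0.419 and 1.30 CPM in LPS libraries, overlapping and not called (-1.14, adjusted p = 0.0507). It was called with a replicate block (adjusted p = 0.00836), without vehicle replicate 3 (-1.30, adjusted p = 0.0275), without LPS replicate 1 (-1.39, adjusted p = 0.036), by DESeq2 (adjusted p = 0.0416), with upper quartile scaling (adjusted p = 0.0386) and with no filter (adjusted p = 0.0421).

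**Figure D4:**
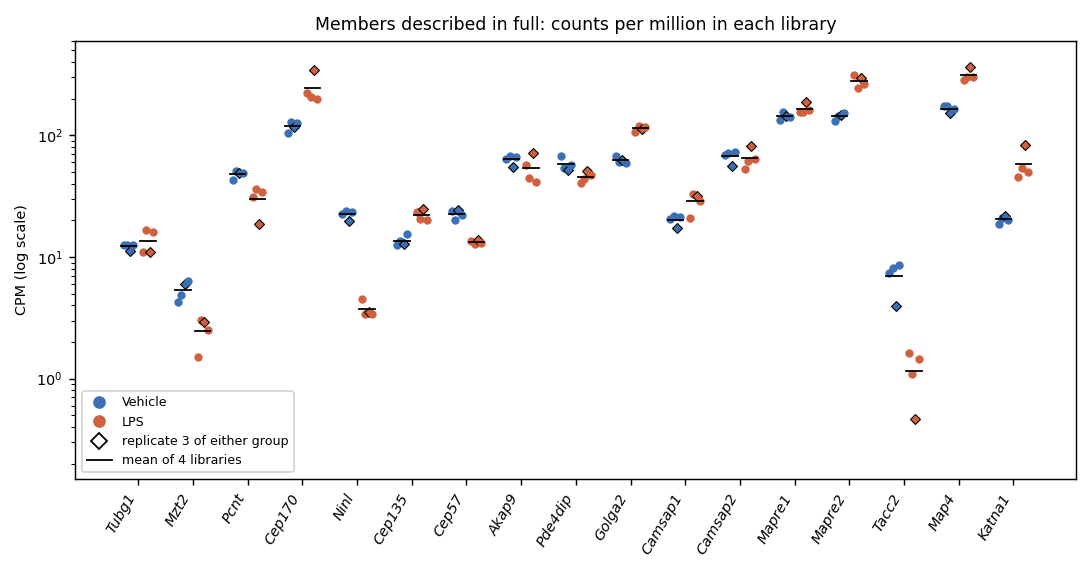
CPM of 17 members in each library (y axis, log scale), vehicle in blue and LPS in orange, with the mean of 4 libraries as a black line and replicate 3 of either group as an outlined diamond. Ninl and Tacc2 lie lowest after LPS relative to vehicle. Katna1, Cep170, Cep135, Mapre2, Map4, Golga2 and, by little, Mapre1 lie above their vehicle libraries in all 4 LPS libraries.

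Compared per kb of exon, the levels in vehicle ranged from 0.0569 CPM per kb for Map7 among tested members to 38.5 CPM per kb for Map7d1. Next came Mapre1 (18.5), Mapre2 (14.1), Tacc1 (12.9), Clip1 (11.5), Mzt1 (11.5), Golga2 (11.3) and Map4 (11.0), of which the last 4 lie too close together to be ordered. After LPS, Map7d1 (49.2 CPM per kb) was followed by Mapre2 (27.4), Katna1 (26.4), Mapre1 (21.2), Map4 (20.8) and Golga2 (20.7). The last 3 lie within their spread, as do Mapre2 and Katna1, whose mean is raised by LPS replicate 3. Katna1 had stood at 9.30 CPM per kb in vehicle. Tubg1 was at 5.38 and 6.03 CPM per kb, and the ring subunits and adaptors that passed the filter were between 2.42 and 11.5 CPM per kb in vehicle.

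Promoter sequence was read for the members with a RefSeq window (GRCm38.p6), from 250 bases before to 50 bases after a start site. Such windows were given for 37 of the 51 members, 48 windows in all. A CCAAT box (CCAAT, either strand) was present in 4 of 7 windows of members called higher (57.1%), in 12 of 21 of those called lower (57.1%), in 5 of 19 of those not called (26.3%), and in 37.5% of the 12597 windows of all tested genes. A cell cycle homology element (TTTGAA, either strand) was in 1 of 7 windows of the higher (14.3%), 3 of 21 of the lower (14.3%) and 4 of 19 of the uncalled members (21.1%), beside 12.1% of all. An NF-kB consensus match (either strand) was in 1 of the 21 windows of members called lower (4.76%), beside 5.27% of all. Several windows of 1 gene can overlap, and a match is a run of letters, not a site shown to be bound. The window of Golga2, which rose 1.83-fold, and 1 window of Nin, which fell, are shown with the matches in capitals (chr2:32288076-32288375, plus strand, and chr12:70111580-70111879, minus strand). Nin was the 1 member with an NF-kB match, which lies in the window shown. The other windows of Nin hold a cell cycle homology element and a CCAAT box and are not shown.
Golga2: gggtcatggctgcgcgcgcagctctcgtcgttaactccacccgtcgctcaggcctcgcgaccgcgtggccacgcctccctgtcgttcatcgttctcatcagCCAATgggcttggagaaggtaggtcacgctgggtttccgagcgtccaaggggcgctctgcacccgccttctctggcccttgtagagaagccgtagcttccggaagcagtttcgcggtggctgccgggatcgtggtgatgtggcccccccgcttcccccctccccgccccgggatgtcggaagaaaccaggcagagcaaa
Nin: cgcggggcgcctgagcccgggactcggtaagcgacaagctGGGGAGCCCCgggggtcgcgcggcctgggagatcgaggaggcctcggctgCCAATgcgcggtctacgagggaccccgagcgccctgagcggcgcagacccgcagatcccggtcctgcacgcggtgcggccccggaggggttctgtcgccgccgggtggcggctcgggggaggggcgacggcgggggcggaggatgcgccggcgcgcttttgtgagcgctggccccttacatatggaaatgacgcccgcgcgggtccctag
The capitals mark the CCAAT box in both and, in Nin, also the NF-kB match that comes before it. That match reads on the strand opposite to the one printed.

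A second list of 119 other microtubule and centrosome genes, none of them a member, gives the setting. Of these 110 were tested, 30 rose (27.3%, beside 30.3% of all tested genes) and 46 fell (41.8%, beside 33.8%), with a median log2 fold change of -0.47 beside -0.11 over all. The shares in the groups below are to be read against the same background. Of 9 tested augmin and nucleation genes none rose and 5 fell, and among 17 tested further lattice MAPs 3 rose and 10 fell. Of 13 genes that organise the Golgi near microtubules 7 rose and 2 fell. Of the genes listed under centriole duplication and appendages 11 of 36 were higher and 15 lower. The 11 include Azi2 (log2 fold change 1.69), which is not an established centriole gene. The other groups were plus-end genes with 4 of 13 higher and 5 lower, severing and destabilising genes with 1 of 6 higher and 3 lower, and tubulin-modifying enzymes with 4 of 16 higher and 6 lower.

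The 5 largest rises in that list were those of the distal appendage gene Cep83 (log2 fold change 2.43), the spectraplakin Dst (2.33), Map10 (2.09) and the centriole genes Cenpj (2.08) and Sass6 (1.86). Cep83 went from 20.8 to 26.1 CPM across the vehicle libraries to 108 to 138 CPM across the LPS libraries, and Dst from 169 to 237 CPM to 885 to 995 CPM. Sass6 shares 30.9% of its exonic bases with genes on the opposite strand, and Prc1 11.1%. The 5 largest falls were those of the spindle and cytokinesis genes Nusap1 (-5.08), Prc1 (-4.73) and Cep55 (-4.23), the tubulin detyrosinating enzyme Vash2 (-3.52) and the spindle gene Ckap2 (-3.41), level with its relative Ckap2l (-3.41). Nusap1 went from 8.70 to 23.2 CPM in vehicle to 0.270 to 0.699 CPM in LPS libraries. In all 10 the adjusted p was at most 4.39e-05 and the groups did not overlap. The cycling markers fell alongside these genes and their part in the falls was not tested.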

How the data were processed

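Total RNA of cultured microglia was sequenced as 8 libraries (4 vehicle, 4 LPS) in single-end reads of 50 bases. The authors deposited raw counts, that is, reads with a unique GSNAP alignment to GRCm38 summed per Ensembl gene by HTSeqGenie and not normalized. The labels name a stranded TruSeq kit on a NovaSeq and the methods another TruSeq kit on a HiSeq, and the annotation release and strand setting are not given in the sources used here. Symbols, positions, exon lengths and transcripts came from GENCODE vM21.

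Counts were tested with edgeR 4.0.16 in R 4.3.3 (TMM, filterByExpr at 10 counts per library and 15 in total, quasi-likelihood test, two-sided, all 8 libraries), with Benjamini-Hochberg adjustment over all 13847 tested genes and a threshold of 0.05. SE is the log2 fold change divided by the square root of F. Shares were tested by exact two-sided permutation of the 70 divisions of the libraries, adjusted over 6 shares. Alternatives were DESeq2 1.42.0, its size factors in edgeR, upper quartile scaling, no filter, a replicate block and leaving out each library. The fits were tested on simulated data. Python 3.11.15, pandas 2.3.3, scipy 1.17.1 and matplotlib 3.10.9 made tables and figures. Counting intervals and limits cover counting error only.

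Deviations from the group means of libraries with the same replicate number correlated across 8006 genes (Pearson's r 0.373, 0.196, 0.172 and 0.109, replicate 1 first). Each was above 0.1, so a replicate block was run as an alternative. The main edgeR test and the permutations of the shares take no account of the replicate numbers. Blocked values are given where a call changes. The labels do not say what a number shares. For replicates 2 and 4 the exchanged pairs correlated as much (0.146 and 0.137).

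Members, lists and tests were chosen with earlier results of these data known. Every member is named. Values in every library are given for 8 members that the study follows by other methods (Tubg1, Pcnt, Akap9, Camsap2, Mapre1, Golga2, Stmn1, Map4). They are also given for the largest called rise and fall of each role group, and for Map7d1, Map1s, Mapt, Stmn3 and Cep152. The calls of these last 5 change when single libraries are left out, and they were added after their values were seen. So do the calls of Tubgcp3, Nedd1, Cep63, Pcm1 and Clasp1, for which values in every library are not given. Of the other list the 5 largest called rises and falls are named.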

Additional observations from a re-analysis of the deposited data

Results flagged for a closer look

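Among 98 groups of 4 libraries, 2 for each tested member, 9 held a library whose gap to its nearest neighbour took most of the range of the group, and chance gives such a flag in about 1 group in 20. LPS replicate 3 accounted for 6 of the 9. It was low for Map1s (5.13 CPM, the next library at 31.6 CPM), Map7d1 (113 CPM, next 200 CPM) and Cep250 (64.8 CPM, next 86.3 CPM). It was high for Ckap5 (153 CPM, next 111 CPM), Gcc2 (79.0 CPM, next 56.7 CPM) and Mapre1 (188 CPM, next 161 CPM). The other flags were Tubg1 in vehicle replicate 3 (11.2 CPM, next 12.5 CPM), Stmn1 in vehicle replicate 1 (0.664 CPM, next 1.07 CPM) and Ninl in LPS replicate 1 (4.54 CPM, next 3.54 CPM).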

How the results depend on the processing

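Among the members no log2 fold change reversed where it or its alternative was called. The counts of members called moved by no more than 1.5 times under DESeq2, its size factors, upper quartile scaling, no filter and each left-out library. With a replicate block 7 members were called higher and 17 lower, with 5 calls lost and 2 gained. Over all genes the block gave 4110 higher and 4934 lower. A replicate block leaves the mean differences in the 6 shares unchanged by arithmetic, so it is no check on their size. Its 4 sign flips cannot give a p below 0.125. With a limit of at least 2-fold, added after the data were seen, 2 members were higher and 7 lower, and 13 genes of the other list were higher and 33 lower. In either direction this limit held for 18.4% of tested members, 41.8% of the tested genes of the other list and 37.7% of all tested genes. Nedd1 and Cep63 lost their calls most often. Without a filter Camsap3 was called lower (log2 fold change -2.02, edgeR adjusted p = 0.0317) on 84 counts in vehicle and 13 in LPS libraries, and Tubg2 was not (-1.64, adjusted p = 0.136). Counts limit Stmn1, Map7, Tubg2 and Camsap3. Tacc2 and Stmn3 each had 3 LPS libraries over the minimum of the filter, with 10 and 9 counts in LPS replicate 3. No batch is named in the labels.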
